A study of Mus musculus with 12 samples.

Results

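G2/M and mitosis genes were followed in mouse liver by RNA-seq, in 12 libraries that fall into 6 groups of 2. The 41 genes were chosen by name as regulators of entry into mitosis and as kinetochore, spindle and cytokinesis genes, out of 23420 genes in the deposited counts, and were sorted into 9 steps of mitosis. Gdown1, listed in the counts as Polr2m, is a protein that binds RNA polymerase II. Every mouse was C57BL/6 and carried floxed Gdown1 alleles, so all control groups carry them too. The FF group (Gdown1 flox/flox) and the KO group (the same with Alb-Cre) were 7 weeks old. The p53KO group (Gdown1 flox/flox with p53-/-) and the DKO group (the same with Alb-Cre) were 8 weeks old. The p53KO TAM and DKO TAM groups were also p53-/- and were sampled 24 hours after tamoxifen, at ages the labels do not give, and DKO TAM livers carried Alb-CreERT2, a Cre that tamoxifen activates. The albumin promoter drives both kinds of Cre in hepatocytes, while the RNA came from whole liver tissue. Cre was present in every deleted group and is named in no control group, so the deletion and Cre itself cannot be told apart. The titles of the FF, KO, p53KO TAM and DKO TAM libraries each carry a number of their own, which the labels do not explain, and nothing says whether the 2 libraries of a group came from separate animals. The p-values below therefore measure only the spread between these libraries, which may be technical.

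Mitosis starts when cyclin B with the kinase CDK1 is switched on by CDC25 phosphatases, with help from the PLK1 and Aurora kinases. Chromosomes are then condensed, attached to the spindle through kinetochores, held back by the spindle checkpoint until attachment is complete, and released when the anaphase-promoting complex (APC/C) with CDC20 triggers the destruction of securin and cyclin B. Most genes of this programme are transcribed late in the cell cycle under FOXM1 and the MuvB complex with B-MYB, and resting cells keep them low through the DREAM form of MuvB, on which p53 acts through p21. Adult hepatocytes are mostly quiescent and enter the cycle again after loss of liver tissue or injury.

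Libraries held between 4939408 and 8776369 counts. Of all genes, 13693 had enough counts to be tested, and all 41 members were among them. Counts were judged over all 12 libraries, so members low in the other groups could be tested there through the DKO libraries, where they were high. Polr2m, the targeted gene, had a log2 fold change of -0.67 ± 0.13 (SE) in KO against FF (adjusted p = 0.0024, edgeR's quasi-likelihood test) and of -0.70 ± 0.13 in DKO against p53KO (adjusted p = 0.00024). In DKO TAM its log2 fold change against p53KO TAM was -0.36 ± 0.13 (adjusted p = 0.063, the same test). The counts cover the whole gene and all cells of the liver, so this checks the labels only in part. Trp53 had a log2 fold change of -1.81 in p53KO against FF (adjusted p = 0.0087, edgeR's quasi-likelihood test).

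A member's promoter sequence was at hand for 34 of the 41 genes, from RefSeq on GRCm38.p6, and the 250 bases before the start were searched on both strands for 2 short motifs. The letters TTTGAA spell the core of the cell cycle genes homology region, which MuvB is known to bind. The letters CCAAT are the core of the box that the factor NF-Y binds. TTTGAA was found in 11 of the 34 genes (32.4%), against 18.3% of all 27025 genes with such windows and 16.0% of their 32851 windows. CCAAT was found in 26 of the 34 (76.5%), against 37.5% of all genes and 33.8% of all windows. Both occurred together in 10 of the 34 (29.4%), against 6.45% of all genes and 5.55% of all windows, and matches of the first motif overlapped none of the second in the members' windows. A match is a stretch of letters and not a measured binding site.

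The promoters below are shown because these members hold the TTTGAA letters close to the start and were, in this order, the most abundant such genes per length in DKO livers. Each run ends at the base before the start and is written 5′ to 3′ on the gene's strand, with the matches of either motif, on either strand, in capitals. Mki67 (chr7:135716380-135716505, minus strand), Top2a (chr11:99024190-99024378, minus strand), Prc1 (chr7:80294356-80294475, plus strand) and Kif11 (chr19:37376262-37376381, plus strand) come first. Ect2 (chr3:27153879-27154002, minus strand), Cdc20 (chr4:118437344-118437463, minus strand), Ccnb2 (chr9:70421555-70421731, minus strand) and Ube2c (chr2:164769809-164769928, plus strand) follow.
Mki67: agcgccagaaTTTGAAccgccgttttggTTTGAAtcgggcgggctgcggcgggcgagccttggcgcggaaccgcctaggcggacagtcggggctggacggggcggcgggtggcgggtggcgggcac
Top2a: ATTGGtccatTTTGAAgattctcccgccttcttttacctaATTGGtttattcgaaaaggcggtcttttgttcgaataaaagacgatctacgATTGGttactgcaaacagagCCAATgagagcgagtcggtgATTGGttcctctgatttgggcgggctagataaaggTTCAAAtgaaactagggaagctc
Prc1: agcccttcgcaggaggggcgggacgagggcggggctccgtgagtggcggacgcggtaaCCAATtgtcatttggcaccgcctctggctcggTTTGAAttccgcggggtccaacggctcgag
Kif11: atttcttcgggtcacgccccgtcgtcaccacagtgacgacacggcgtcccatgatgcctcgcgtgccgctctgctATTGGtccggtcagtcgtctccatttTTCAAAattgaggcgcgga
Ect2: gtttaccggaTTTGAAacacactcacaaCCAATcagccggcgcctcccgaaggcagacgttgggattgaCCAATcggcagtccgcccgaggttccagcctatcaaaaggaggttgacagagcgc
Cdc20: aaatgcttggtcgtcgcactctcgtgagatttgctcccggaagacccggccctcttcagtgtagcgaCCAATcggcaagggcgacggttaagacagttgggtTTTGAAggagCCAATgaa
Ccnb2: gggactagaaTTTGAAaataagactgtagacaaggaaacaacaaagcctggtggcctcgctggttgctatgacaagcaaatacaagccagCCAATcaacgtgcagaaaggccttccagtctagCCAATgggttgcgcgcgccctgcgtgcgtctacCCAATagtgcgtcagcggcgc
Ube2c: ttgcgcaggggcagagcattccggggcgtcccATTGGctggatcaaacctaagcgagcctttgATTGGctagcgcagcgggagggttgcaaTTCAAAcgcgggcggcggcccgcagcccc

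The shown Mki67 stretch holds 2 matches of the first motif and no CCAAT. The CCAAT matches of Mki67 lie farther out, between 188 and 137 bases before the start. The Top2a stretch holds 2 of the first motif and 5 of the second. The other 6 hold 1 match of the first motif each, with between 1 and 3 of the second. In the 11 members with TTTGAA and the 23 without it, the median log2 fold change was 4.85 and 4.69 in DKO against p53KO, 1.61 and 1.36 in KO against FF, and 1.78 and 1.81 in DKO TAM against p53KO TAM.

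The members were low in all 3 control groups and by far the most abundant in DKO livers. Levels are given as CPM, reads scaled to a common library size with the TMM factors of edgeR. Summed over the 41 genes, the level was 150 and 100 CPM in the FF libraries, 131 and 113 in p53KO, and 113 and 110 in p53KO TAM. It was 288 and 294 CPM in KO, 283 and 414 in DKO TAM, and 2683 and 2679 in DKO. Both DKO libraries lay above all 10 other libraries for 39 of the 41 members, the exceptions being Mybl2 and Pttg1. The lowest DKO library was a median of 5.70 times the highest other library. That count was not made over all genes. Of all genes tested, 39.7% met the looser measure of both DKO libraries above both p53KO libraries, so the share above all 10 can be no larger. In bulk tissue, a change in the number of cells that express a gene and a change in RNA per cell cannot be told apart.

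**Figure D1:**
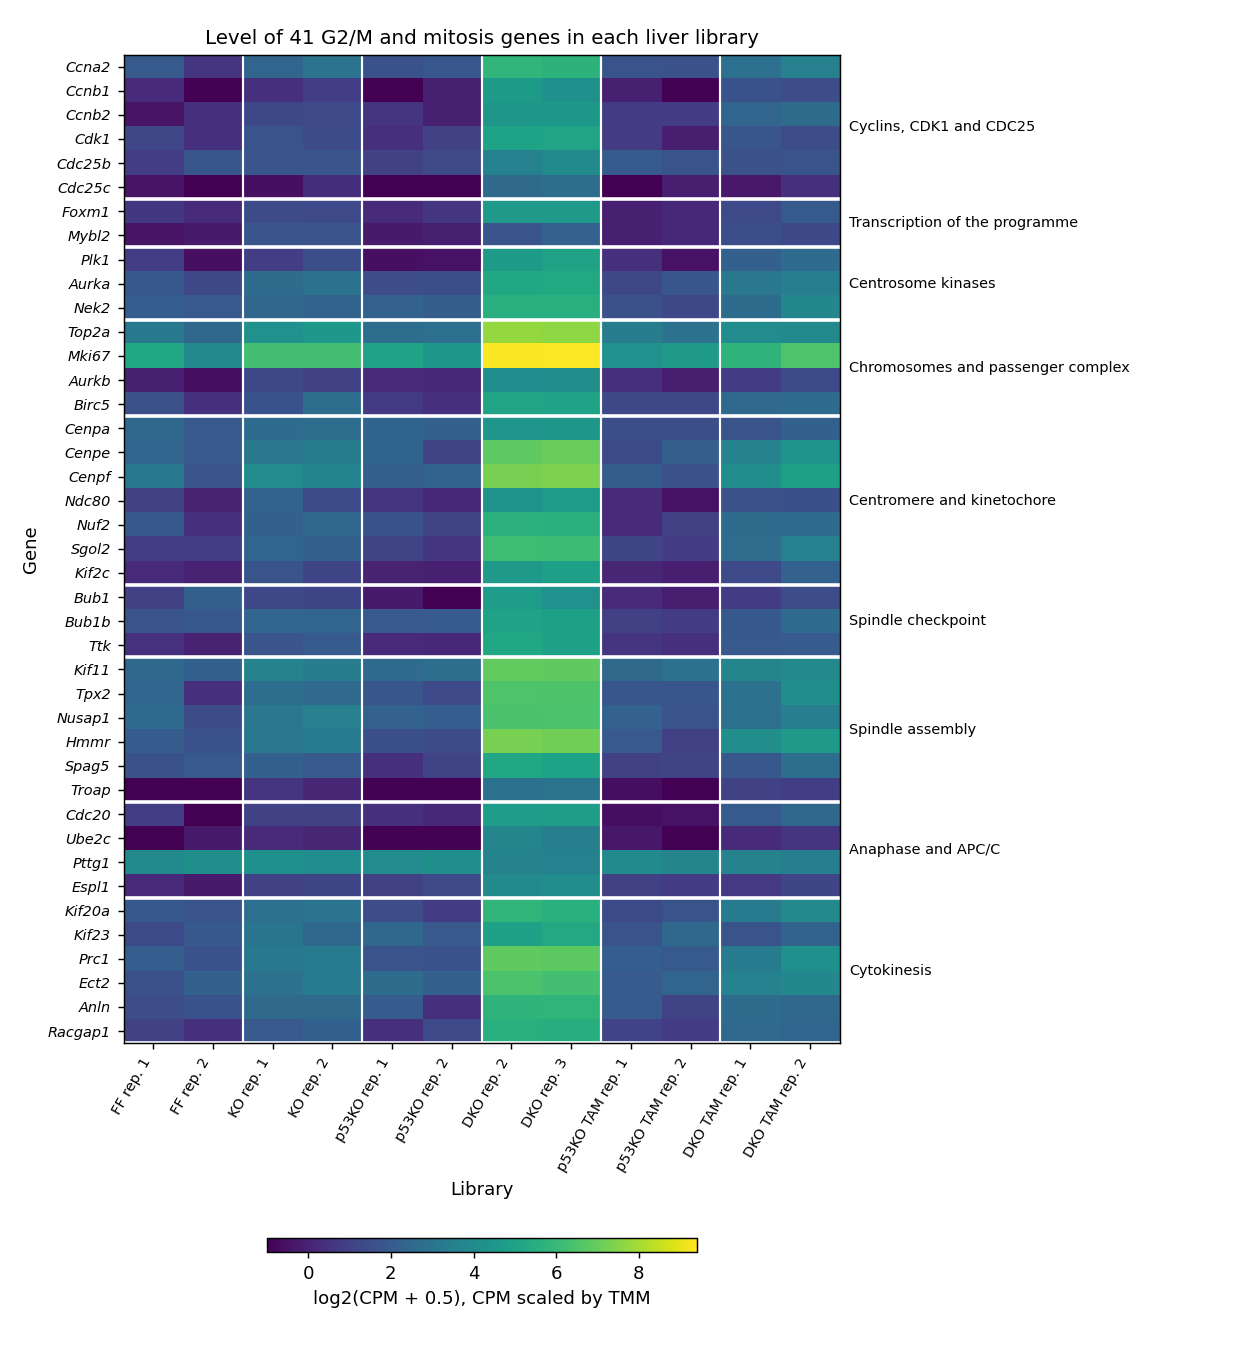
Each row is one of the 41 genes, grouped by step of mitosis, each column is one library, and colour gives the level as log2(CPM + 0.5). The 2 DKO columns are the brightest for 39 genes, KO and DKO TAM lie between DKO and the controls for most, and the Pttg1 row has a like colour in all 12 libraries.

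Per kilobase of exon, which allows genes to be compared, the median member stood at 0.514 CPM per kb in FF, 0.420 in p53KO and 0.455 in p53KO TAM. It stood at 1.23 CPM per kb in KO, 1.66 in DKO TAM and 12.7 in DKO. Pttg1, which encodes securin, the inhibitor of separase, was the most abundant member per length in FF (9.31 ± 1.03 CPM per kb, SD, n = 2), p53KO (9.52 ± 0.68), p53KO TAM (7.86 ± 0.75) and KO (9.96 ± 0.80). In DKO, Mki67, the Ki-67 proliferation antigen that coats mitotic chromosomes, came first at 65.3 ± 1.8 CPM per kb, followed by Top2a at 39.3 ± 1.8 and Hmmr at 37.3 ± 2.3, and the last 2 did not differ beyond their spread. The lowest members per length in DKO were Mybl2 at 0.967 ± 0.299 CPM per kb and Espl1 at 2.42 ± 0.16.

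The first question was how these genes respond to loss of Gdown1 in livers without p53. In DKO, 40 of the 41 members were higher than in p53KO and 1, Pttg1, was lower (adjusted p under 0.05, edgeR's quasi-likelihood test). Over all genes, 51.4% passed that test, 25.7% upward and 25.7% downward. Among the 40, 6 members (Bub1, Ccnb1, Cdc25c, Plk1, Troap and Ube2c) had at most 3 counts over p53KO. These had enough counts for the test only through other groups and almost no room to come out lower. Both DKO libraries lay above both p53KO libraries for 40 members, against 39.7% of all genes, and below both for 1, against 37.3%. The median log2 fold change was 4.82 for the members, or 4.76 with the 3 genes that had no count in p53KO (Cdc25c, Troap, Ube2c) set at their lower bounds, and 0.01 for all genes tested. For the 35 members with enough counts in both groups, the ratio of mean CPM ran from 0.711 to 64.4, with a median of 26.5. All 40 upward calls held in every alternative setting, including those that left out 1 library at a time.

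The second question was the same loss with p53 present. In KO, 21 of the 41 members were higher than in FF and 0 were lower (the same test). Over all genes, 14.8% passed, 6.92% upward and 7.88% downward. A further 6 members reached an unadjusted p under 0.05 only, which makes 27 in all at that level. Both KO libraries lay above both FF libraries for 35 members, against 28.9% of all genes, and below both for 0, against 27.3%. The members' median log2 fold change was 1.38 and that of all genes 0.02. These calls leaned on single libraries: 17 members passed without FF replicate 1, 5 without FF replicate 2, 12 without KO replicate 1 and 10 without KO replicate 2. Fewer of all genes passed in each of these fits too. The members' median log2 fold change in them ran from 1.06 without FF replicate 2 to 1.77 without FF replicate 1. Only Top2a, Kif11 and Mybl2 passed in each of them and in every other setting. DESeq2 ended the calls of Aurkb, Kif2c, Ndc80, Nuf2 and Troap, and limma-voom those of Birc5, Ccna2, Kif20a, Kif23, Kif2c, Ndc80, Nuf2 and Sgol2. With only the 4 libraries compared, 13 of the 21 calls were kept. Those of Birc5, Ccna2, Mki67, Ndc80 and Nuf2 ended, and Aurkb, Kif2c and Troap no longer had enough counts to be tested. FF replicate 1 was above FF replicate 2 for 28 of the 41 members, with a summed level of 150 against 100 CPM.

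The third comparison addressed the first 24 hours after tamoxifen. In DKO TAM, 30 of the 41 members were higher than in p53KO TAM and 0 were lower (the same test). Over all genes, 18.7% passed, 8.61% upward and 10.1% downward. Both DKO TAM libraries lay above both controls for 36 members, against 30.2% of all genes, and below both for 1, against 29.3%. The members' median log2 fold change was 1.81 and that of all genes 0.01. DKO TAM replicate 2 was above replicate 1 for 31 of the 41 members. Leaving out 1 library at a time left between 21 and 28 members past the threshold, and 18 of the 30 passed each time. Fewer of all genes passed in these fits too. DESeq2 ended the calls of Cdk1, Mybl2 and Troap, and limma-voom those of Cdk1, Ndc80, Nusap1 and Spag5. The calls that ended when a library was left out were those of Birc5, Bub1b, Ccna2, Ccnb1, Cdk1, Foxm1, Mki67, Mybl2, Ndc80, Nusap1, Spag5 and Top2a. Their log2 fold changes then stayed positive, and their largest adjusted p ran from 0.0587 for Bub1b without DKO TAM replicate 2 to 0.217 for Cdk1.

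**Figure D2:**
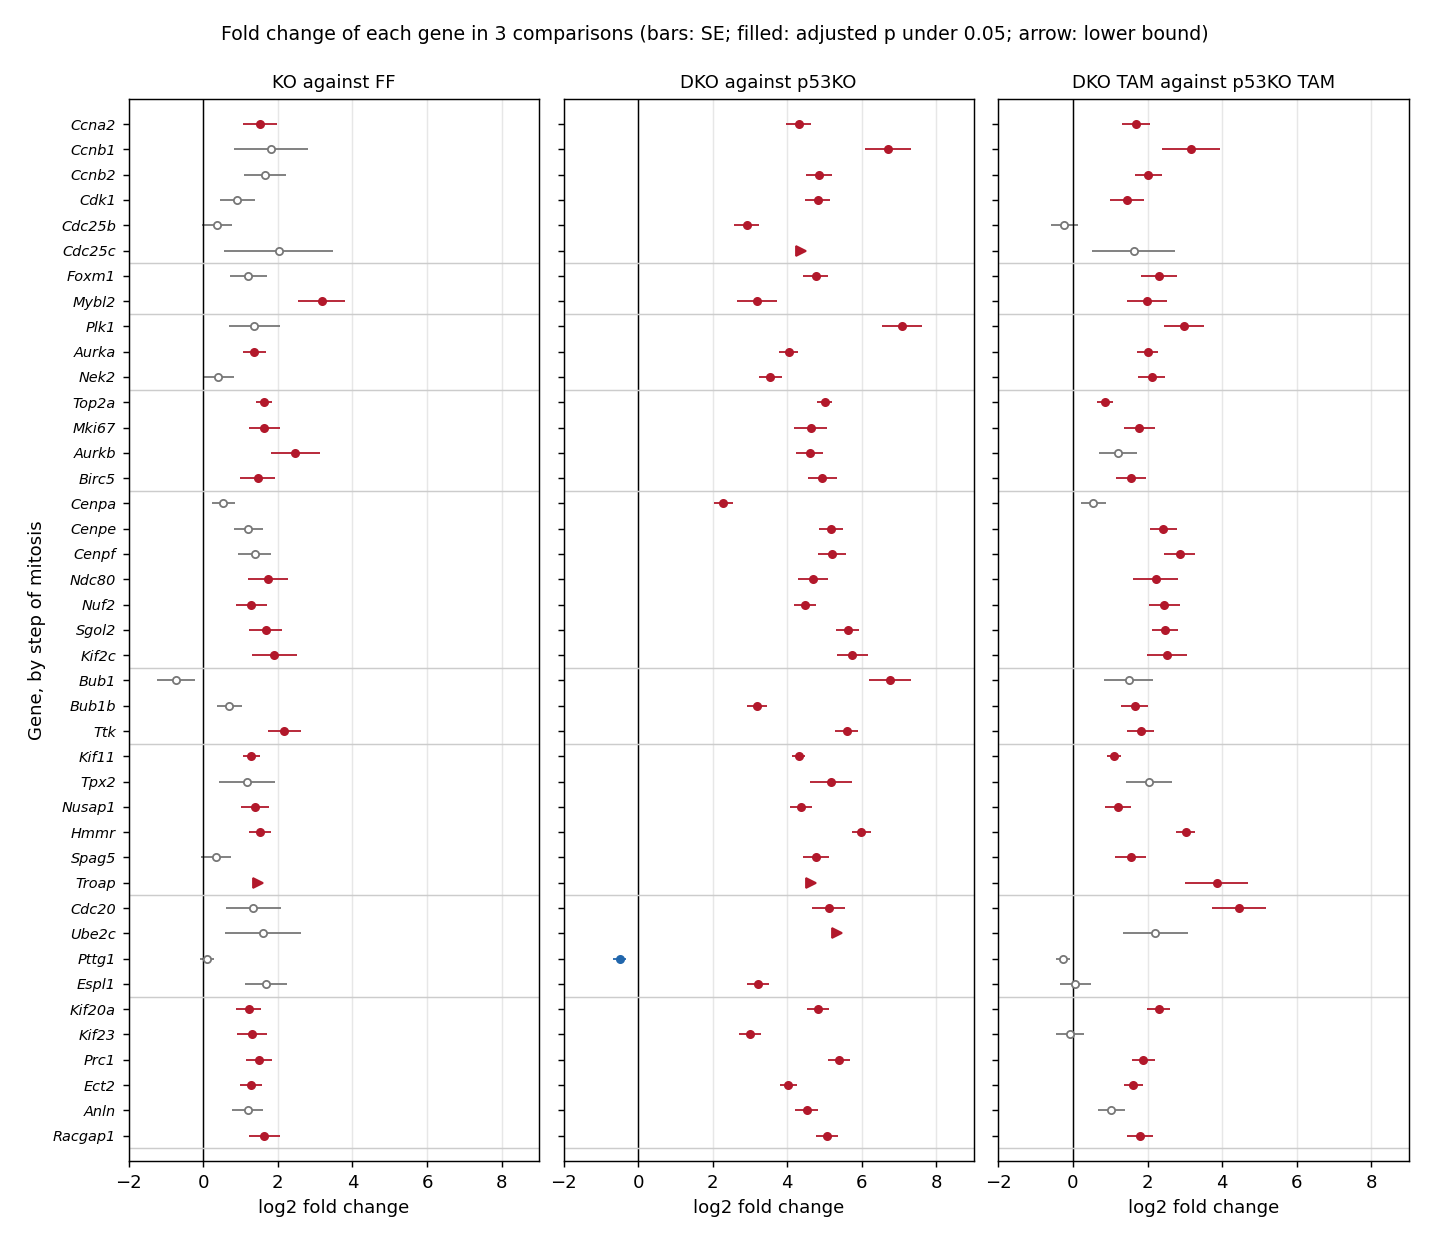
Points give the log2 fold change of each gene in the 3 comparisons, bars its SE, filled points an adjusted p under 0.05 (red higher, blue lower) and arrows a lower bound for genes with no count in the control group. In the middle panel 40 points lie to the right of 0 and Pttg1 to the left, and the outer panels have medians of 1.38 and 1.81.

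Across the 3 comparisons, 19 members were higher in all of them: Aurka, Birc5, Ccna2, Ect2, Hmmr, Kif11, Kif20a, Kif2c, Mki67, Mybl2, Ndc80, Nuf2, Nusap1, Prc1, Racgap1, Sgol2, Top2a, Troap and Ttk. These were 90.5% of the members called in KO and 63.3% of those called in DKO TAM. The 3 comparisons share no library. The share of all genes higher in all 3 was not computed, and 6.92%, 25.7% and 8.61% were higher in KO, DKO and DKO TAM taken singly. With 40 of the 41 members higher in DKO, overlap with that comparison was almost given. Kif2c and Troap had enough counts for the KO test only through the libraries of other groups. Of these 19, Kif11 is the 1 gene that kept its call in all 3 comparisons whichever library was left out.

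Among the cyclins, CDK1 and its activating phosphatases, 6 of 6 members rose in DKO, 1 of 6 in KO and 4 of 6 in DKO TAM. Ccnb1, which encodes cyclin B1, had 0.678 and 0 CPM in FF, 0.847 and 1.35 in KO, 0 and 0.429 in p53KO, 25.1 and 18.2 in DKO, 0.437 and 0 in p53KO TAM, and 2.60 and 2.25 in DKO TAM. The control libraries thus held at most 3 reads of this gene each, while all deleted libraries lay above their controls. Where a group held 1 to 3 reads of a gene in all, the ratio is given as that of counts pooled over the group, each over the pooled library size. The pooled ratio of Ccnb1 was 114 in DKO, with a 95% exact counting interval of 31.4 to 944, and 9.5 in DKO TAM, with an interval of 3.04 to 47.9. Such intervals cover counting error only. Without p53KO TAM replicate 2 the DKO TAM call of Ccnb1 ended, with a log2 fold change of 2.44.

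Ccna2, encoding cyclin A2, was the member of this step that rose in all 3 comparisons, by ratios of means of 2.72 in KO, 19.7 in DKO and 3.29 in DKO TAM. Its KO call ended without FF replicate 2 or KO replicate 2, and its DKO TAM call without p53KO TAM replicate 1, with log2 fold changes of 0.81, 1.17 and 1.77. Ccnb2, encoding cyclin B2, and Cdk1 rose 30.8 and 27.8 times in DKO and 4.12 and 2.99 times in DKO TAM, where the Cdk1 call ended without p53KO TAM replicate 2 or either DKO TAM library (log2 fold change at least 0.98). That call also ended with DESeq2, with limma-voom and with only the libraries compared. Their log2 fold changes in KO were 1.66 ± 0.56 and 0.91 ± 0.48 (adjusted p = 0.056 and 0.22, edgeR's quasi-likelihood test). Ccna2 shares 378 of its exon bases, 13.4%, with Exosc9, and reads of such stretches cannot be assigned where strand was not used.

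The CDC25 phosphatases remove the inhibitory phosphates from CDK1, and both rose in DKO and passed in neither KO nor DKO TAM. Cdc25b stood at 1.36 and 2.94 CPM in FF, 2.88 and 2.88 in KO, 1.54 and 1.93 in p53KO, 11.2 and 14.9 in DKO, 3.35 and 2.71 in p53KO TAM, and 2.50 and 2.75 in DKO TAM. Only the DKO libraries stood clear of the rest. It rose 7.52 times in DKO, while its log2 fold change was 0.37 ± 0.41 in KO and -0.23 ± 0.35 in DKO TAM, neither past the threshold. Cdc25c had no count in p53KO and was at least 20.6-fold higher in DKO, a bound set against 3 counts over the group. It did not pass in the other comparisons, where its group totals in the controls were too low for more than a wide interval (0.515 to 218 in KO, 0.706 to 31.1 in DKO TAM).

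Of the 2 transcription factors of the programme, both rose in DKO and in DKO TAM and 1 rose in KO. Foxm1, the forkhead factor that drives late cell cycle genes, rose 27.2 times in DKO and 5.04 times in DKO TAM, and had a log2 fold change of 1.21 ± 0.50 in KO (adjusted p = 0.12, edgeR's quasi-likelihood test). Mybl2, which encodes B-MYB, stood at 0.226 and 0.345 CPM in FF, 2.88 and 2.69 in KO, 0.341 and 0.429 in p53KO, 2.80 and 4.36 in DKO, 0.437 and 0.626 in p53KO TAM, and 2.29 and 1.88 in DKO TAM. The KO and DKO pairs overlapped, the DKO TAM pair lay just below them, and all 6 libraries lay above the controls. Its log2 fold change was 3.17 ± 0.63 in KO and 3.18 ± 0.54 in DKO (adjusted p = 0.0027 and 0.00012, the same test), and 1.98 ± 0.54 in DKO TAM (adjusted p = 0.017). The pooled KO ratio of 9.51 rests on 3 counts in FF, with an exact counting interval of 2.97 to 48.6. Its DKO TAM call ended without either p53KO TAM library or without DKO TAM replicate 1, where the log2 fold change was at least 1.72 and the largest adjusted p 0.158, and with DESeq2. Foxm1 lost its DKO TAM call without p53KO TAM replicate 1, with a largest adjusted p of 0.0667.

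All 3 centrosome kinases rose in DKO and in DKO TAM, and 1 of 3 in KO. Aurka, encoding Aurora A, which matures centrosomes and activates PLK1, rose 2.54, 16.6 and 3.93 times in KO, DKO and DKO TAM. Plk1, the Polo kinase of mitotic entry, had 0.171 and 0.214 CPM in p53KO and 24.6 and 31.3 in DKO, a pooled ratio of 147 with a counting interval of 40.5 to 1216. In DKO TAM it rose 9.07 times, from 0.874 and 0.209 CPM to 4.06 and 5.76. Nek2, a kinase of centrosome separation, rose 11.8 times in DKO and 4.5 times in DKO TAM, and its log2 fold change in KO was 0.40 ± 0.41. The KO call of Aurka ended without FF replicate 2 or KO replicate 2, with a log2 fold change of at least 1.01.

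The 4 members of the chromosome and passenger complex step all rose in KO and in DKO, and 3 of 4 rose in DKO TAM. Top2a (chr11:98992947-99024189), topoisomerase II alpha, which untangles sister chromatids, stood at 8.59 and 5.01 CPM in FF, 18.8 and 22.5 in KO, 6.32 and 6.43 in p53KO, 212 and 198 in DKO, 9.76 and 7.10 in p53KO TAM, and 15.8 and 15.3 in DKO TAM. The groups of each comparison did not overlap, and KO lay above DKO TAM. Its log2 fold change was 1.63 ± 0.22 in KO, 5.0 ± 0.20 in DKO and 0.86 ± 0.20 in DKO TAM (adjusted p = 0.00011, 8.0e-11 and 0.0076, edgeR's quasi-likelihood test). Without p53KO TAM replicate 2 the last was 0.67 and did not pass.

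Mki67 (chr7:135689788-135716379) stood at 36.4 and 14.5 CPM in FF, 77.6 and 77.1 in KO, 30.9 and 22.1 in p53KO, 645 and 671 in DKO, 18.8 and 23.8 in p53KO TAM, and 53.7 and 91.8 in DKO TAM. Replicates were far apart in FF and DKO TAM, yet no deleted library met its controls. The ratio of means was 3.04 in KO, 24.8 in DKO and 3.42 in DKO TAM. The KO call ended without either KO library (log2 fold change 1.63 and 1.62, largest adjusted p 0.138), with no filter on low counts and with only the libraries compared, and the DKO TAM call without either control library or without DKO TAM replicate 2 (at least 1.35, largest adjusted p 0.143). Aurkb and Birc5 encode Aurora B and survivin, partners in the passenger complex that corrects kinetochore attachments. Birc5 rose 2.65, 31.7 and 2.96 times in KO, DKO and DKO TAM. Aurkb rose 24.9 times in DKO and 5.83 times in KO (pooled ratio, counting interval 1.71 to 30.7), and its log2 fold change in DKO TAM was 1.21 ± 0.50 (adjusted p = 0.10, the same test). The KO calls of Aurkb and Birc5 ended without FF replicate 2, and without KO replicate 1 and KO replicate 2 in turn, with log2 fold changes of at least 1.88 and 0.66, and that of Birc5 in DKO TAM without either control library, at 1.55 or more.

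Of the 7 centromere and kinetochore members, 7 rose in DKO, 4 in KO and 6 in DKO TAM. Cenpe and Cenpf, a kinetochore motor and a large kinetochore protein, rose 37.8 and 36.8 times in DKO and 5.18 and 7.56 times in DKO TAM. In KO their ratios were 2.28 and 2.46, short of the threshold (adjusted p = 0.052 and 0.061, edgeR's quasi-likelihood test). Ndc80 and Nuf2, which form the microtubule-binding NDC80 complex together, rose 26.9 and 22.9 times in DKO, 3.10 and 2.29 times in KO, and 5.21 and 5.24 times in DKO TAM. Sgol2, a shugoshin that guards centromeric cohesion, rose 3.21, 50.8 and 5.77 times in KO, DKO and DKO TAM, and Kif2c, a kinesin that takes microtubules apart at kinetochores, 3.71, 56.2 and 6.23 times. Each of these 4 KO calls ended without FF replicate 2 and without KO replicate 1, those of Sgol2 and Kif2c also without FF replicate 1, and those of Nuf2 and Kif2c also without KO replicate 2. The lowest log2 fold change was 0.54, for Nuf2. The Nuf2 call was kept in 5 of 14 alternative settings. In DKO TAM the call of Ndc80 ended without p53KO TAM replicate 2 or DKO TAM replicate 1 (at least 1.72).

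Cenpa, the histone H3 variant that marks centromeres, moved least among the members that rose in DKO. It stood at 5.20 and 3.28 CPM in FF, 5.76 and 6.34 in KO, 4.61 and 4.08 in p53KO, 20.7 and 22.0 in DKO, 2.33 and 2.30 in p53KO TAM, and 2.71 and 4.13 in DKO TAM. The groups did not overlap in any of the 3 comparisons. The ratio of means was 4.91 in DKO, and 1.43 and 1.48 in KO and DKO TAM, where the adjusted p was 0.25 and 0.29 (edgeR's quasi-likelihood test).

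The 3 spindle checkpoint members rose in DKO, 1 of them also in KO and 2 in DKO TAM. Ttk, the kinase MPS1 that starts checkpoint signalling, rose 4.46 times in KO, 49.6 times in DKO and 3.63 times in DKO TAM, and only without FF replicate 2 did its KO call end (log2 fold change 1.78, adjusted p = 0.063, the same edgeR test). Bub1b, encoding BUBR1, rose 9.15 times in DKO and 3.28 times in DKO TAM, and its ratio in KO was 1.64 (adjusted p = 0.18). Its DKO TAM call ended without DKO TAM replicate 2 (log2 fold change 1.18). Bub1, a checkpoint kinase at kinetochores, stood at 1.58 and 4.15 CPM in FF, 1.86 and 1.73 in KO, 0.341 and 0 in p53KO, 25.9 and 18.7 in DKO, 0.728 and 0.418 in p53KO TAM, and 1.25 and 2.25 in DKO TAM. The KO libraries fell within the range of the FF pair. Its log2 fold change was -0.73 ± 0.51 in KO, turning to 0.18 without FF replicate 2, and neither value passed. In DKO the pooled ratio was 117, with a counting interval of 32.3 to 970, and in DKO TAM it was 3.06 (adjusted p = 0.12, the same test).

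Spindle assembly members numbered 6, of which 6 rose in DKO, 4 in KO and 5 in DKO TAM. Hmmr (chr11:40701388-40733437), a spindle and centrosome protein, stood at 3.62 and 2.59 CPM in FF, 8.47 and 9.04 in KO, 2.39 and 2.14 in p53KO, 152 and 140 in DKO, 3.21 and 1.46 in p53KO TAM, and 17.2 and 23.3 in DKO TAM. The order of the deleted groups was KO, DKO TAM, DKO, with no overlap between them. Its log2 fold change was 1.52 ± 0.30, 5.99 ± 0.24 and 3.02 ± 0.26 in KO, DKO and DKO TAM (adjusted p = 0.0026, 8.0e-11 and 1.1e-06, edgeR's quasi-likelihood test). Without FF replicate 2 the KO value was 1.27 (adjusted p = 0.053).

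Kif11, the Eg5 motor that pushes spindle poles apart, stood at 4.97 and 4.15 CPM in FF, 12.2 and 9.80 in KO, 5.63 and 6.22 in p53KO, 119 and 115 in DKO, 5.54 and 7.10 in p53KO TAM, and 12.6 and 14.1 in DKO TAM. KO and DKO TAM stood at like levels, above their controls and far below DKO. Its ratios of means were 2.41, 19.7 and 2.12. Nusap1, a microtubule bundler, rose 2.50, 20.9 and 2.41 times in KO, DKO and DKO TAM. Its KO call ended without FF replicate 2 or KO replicate 2 (log2 fold change at least 0.76), and its DKO TAM call without any 1 library but DKO TAM replicate 1 (at least 0.86). Tpx2, which activates Aurora A on the spindle, rose 37.1 times in DKO, and its ratio in DKO TAM was 4.21 (adjusted p = 0.051, edgeR's quasi-likelihood test). Spag5, encoding astrin, rose 26.5 times in DKO and 2.97 times in DKO TAM, the latter call ending without any 1 library but DKO TAM replicate 1 (adjusted p of up to 0.166).

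Troap, which encodes tastin, had no read in either FF or p53KO library. In KO it stood at 1.02 and 0.577 CPM and in DKO at 6.78 and 7.53, at least 2.76-fold and at least 25.1-fold higher than 3 counts over the control group. DKO TAM libraries held 1.56 and 1.38 CPM against 0.146 and 0, a pooled ratio of 17.2 with a counting interval of 2.83 to 706. The KO call ended without either FF library or without KO replicate 1 (largest adjusted p 0.133) and with DESeq2, which also ended the DKO TAM call (adjusted p = 0.051).

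Among the 4 anaphase and APC/C members, 3 rose and 1 fell in DKO, 0 passed in KO and 1 rose in DKO TAM. Cdc20 (chr4:118432901-118437343), the activator of the APC/C at anaphase, stood at 1.36 and 0 CPM in FF, 1.52 and 1.54 in KO, 0.854 and 0.643 in p53KO, 26.4 and 27.1 in DKO, 0.146 and 0.209 in p53KO TAM, and 3.33 and 5.01 in DKO TAM. It rose 35.7 times in DKO and 23.9 times in DKO TAM, the latter a pooled ratio with a counting interval of 6.37 to 201 because p53KO TAM held few reads. In KO its log2 fold change was 1.34 ± 0.74 (adjusted p = 0.25, edgeR's quasi-likelihood test).

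Ube2c, the ubiquitin-conjugating enzyme of the APC/C, had no count in p53KO and was at least 40.5-fold higher in DKO, at 12.7 and 10.4 CPM. Its pooled ratios of 3.22 in KO and 4.97 in DKO TAM had counting intervals of 0.613 to 31.8 and 1.16 to 44.8 and did not pass (adjusted p = 0.32 and 0.094, edgeR's quasi-likelihood test). Espl1, encoding separase, which cuts cohesin, rose 9.24 times in DKO. Its ratio was 3.18 in KO (adjusted p = 0.059, the same test) and 1.07 in DKO TAM.

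Pttg1 (chr11:43420248-43426248) was the only member that fell in any of the 3 comparisons. It stood at 14.9 and 17.4 CPM in FF, 18.3 and 16.3 in KO, 15.7 and 17.4 in p53KO, 12.1 and 11.4 in DKO, 14.6 and 12.7 in p53KO TAM, and 12.2 and 10.6 in DKO TAM. All 12 libraries lay in a narrow band, with the DKO pair below the p53KO pair. Its log2 fold change in DKO was -0.49 ± 0.18 (adjusted p = 0.029, edgeR's quasi-likelihood test). The call ended without any 1 of the 4 libraries (-0.57 to -0.43, largest adjusted p 0.13). It also ended with DESeq2 (adjusted p = 0.13) and under upper quartile scaling (-0.27). Scaled by library totals alone, the value turned to 0.28 (adjusted p = 0.18). With library totals alone the median of all genes was itself shifted to 0.78 in this comparison, 0.28 in KO against FF and 0.36 in DKO TAM against p53KO TAM, so Pttg1 stayed below that median.

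Of the 6 cytokinesis members, 6 rose in DKO, 5 in KO and 4 in DKO TAM. Prc1, the bundler of the central spindle, stood at 3.84 and 2.59 CPM in FF, 8.81 and 9.04 in KO, 2.73 and 2.57 in p53KO, 114 and 110 in DKO, 3.79 and 3.34 in p53KO TAM, and 9.06 and 18.0 in DKO TAM. Each deleted pair lay above its controls, and the DKO TAM pair was wide. Its ratios of means were 2.77, 42.3 and 3.80. Ect2 encodes the activator of RhoA at the cleavage furrow, and Racgap1 a part of centralspindlin. They rose 2.49 and 3.05 times in KO, 16.6 and 32.6 times in DKO, and 3.02 and 3.56 times in DKO TAM. Anln, encoding the furrow protein anillin, rose 24.5 times in DKO, and its ratios of 2.30 in KO and 2.14 in DKO TAM missed the threshold (adjusted p = 0.062 and 0.060, edgeR's quasi-likelihood test).

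Kif20a and Kif23 encode the kinesins MKLP2 and MKLP1, which carry the passenger complex and centralspindlin to the midzone. Kif20a rose 2.32, 29.4 and 4.89 times in KO, DKO and DKO TAM, and 28.6% of its exon bases overlap those of Cdc23, an APC/C subunit. Kif23 stood at 2.03 and 3.11 CPM in FF, 7.79 and 5.19 in KO, 5.12 and 3.22 in p53KO, 30.4 and 38.1 in DKO, 2.77 and 5.01 in p53KO TAM, and 2.71 and 4.51 in DKO TAM. The DKO TAM pair overlapped its controls almost fully. Kif23 rose 2.52 times in KO and 8.22 times in DKO, and its log2 fold change in DKO TAM was -0.07 ± 0.37. Of the 5 KO calls of this step, those of Prc1 and Racgap1 ended without FF replicate 2 or KO replicate 2, that of Ect2 without FF replicate 1 or KO replicate 2, that of Kif23 without any 1 library but KO replicate 2, and that of Kif20a without any 1 library, with log2 fold changes of at least 0.97 and adjusted p of up to 0.241 (Kif23).

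**Figure D3:**
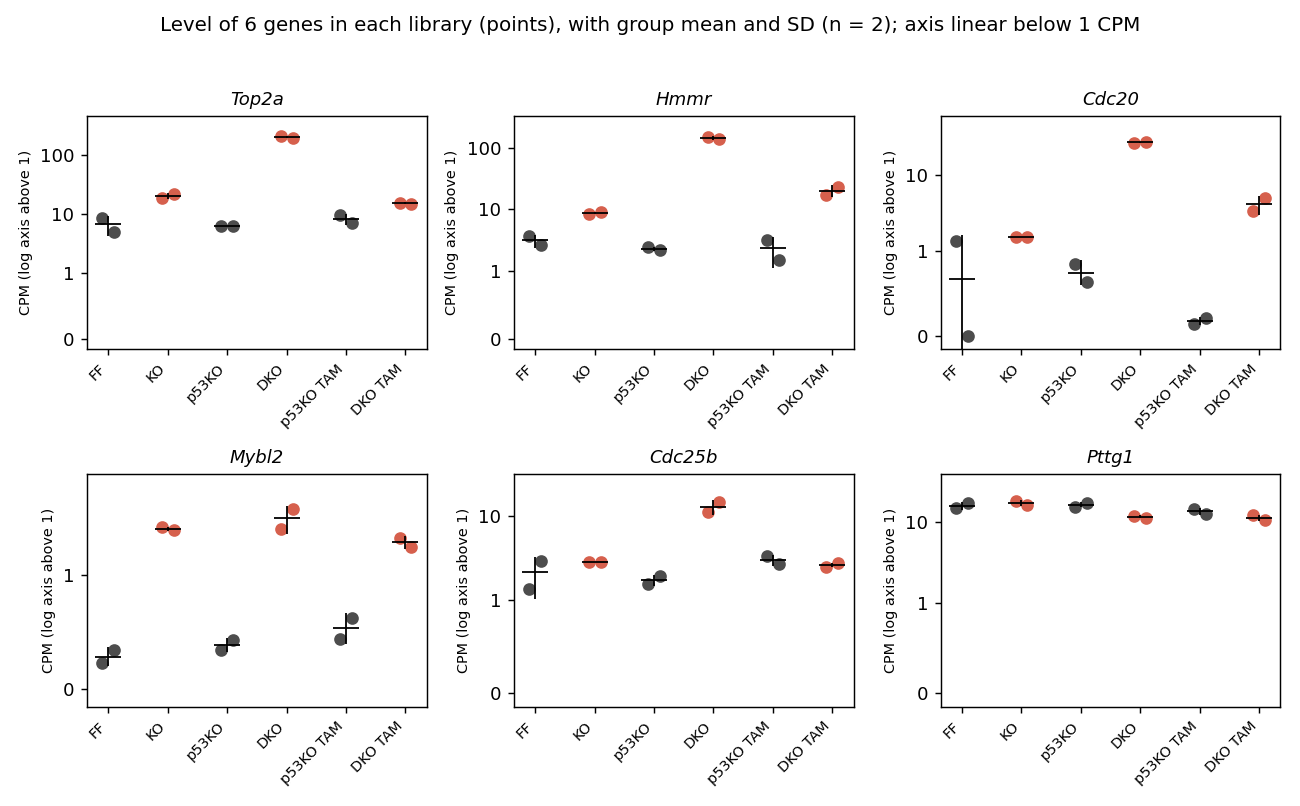
Points are the CPM of 6 genes in each library, with the group mean and SD (n = 2) in black, deleted groups in red and controls in grey. Axes are logarithmic above 1 CPM and linear below. Top2a, Hmmr and Cdc20 are highest in DKO (212 and 198, 152 and 140, 26.4 and 27.1 CPM), Mybl2 is about as high in KO as in DKO, Cdc25b is raised in DKO and Pttg1 stays between 10.6 and 18.3 CPM.

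Whether the response without p53 was larger than with p53 was tested as the difference of the DKO and KO effects. The difference was positive and past the threshold for 34 of the 41 members and negative for 0 (edgeR's quasi-likelihood test), where 22.7% of all genes passed, 9.75% upward and 12.9% downward. The 4 with the smallest p were Top2a (3.37 ± 0.31), Hmmr (4.47 ± 0.45), Kif11 (3.02 ± 0.31) and Bub1 (7.47 ± 0.85), on the log2 scale. The Bub1 value rests on very few counts in p53KO. The 7 that did not pass were Aurkb, Ccnb1, Cdc25c, Espl1, Mybl2, Pttg1 and Troap. For Mybl2 the difference was 0.00, for Aurkb 2.13 and for Ccnb1 4.89, the latter 2 with adjusted p of 0.18 and 0.057. The KO and DKO livers differed in age by 1 week and in p53 status, and their counts came in 2 file formats, and these cannot be told apart. Without FF replicate 1, 24 members passed.

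The DKO effect was likewise compared with that 24 hours after tamoxifen, in p53-/- livers throughout. The difference was positive and past the threshold for 33 of the 41 members and negative for 0 (the same test), where 27.6% of all genes passed, 13.4% upward and 14.2% downward. The smallest p belonged to Top2a (4.14 ± 0.29), Kif11 (3.20 ± 0.28), Prc1 (3.50 ± 0.48) and Hmmr (2.97 ± 0.44). The differences for Cdc25b and Kif23, whose effects had opposite signs, were 3.14 ± 0.50 and 3.08 ± 0.49. Those that did not pass were Ccnb1, Cdc20, Cdc25c, Mybl2, Ndc80, Nek2, Pttg1 and Troap, and Cdc20 had the smallest positive difference, 0.66 (adjusted p = 0.80). Both differences use the same DKO and p53KO libraries. Time since deletion, the kind of Cre and tamoxifen differ together between these 2 experiments and cannot be told apart.

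Of the 8 members called in DKO and in neither other comparison (Anln, Bub1, Cdc25b, Cdc25c, Cenpa, Espl1, Tpx2, Ube2c), 6 had a DKO effect larger than the KO effect and 7 a DKO effect larger than the DKO TAM effect by these tests. Cdc25c passed neither (adjusted p = 0.17 and 0.064, edgeR's quasi-likelihood test), and Espl1 passed the second only.

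The KO and DKO TAM effects were also set against each other, a comparison chosen after their values had been seen. No member passed (edgeR's quasi-likelihood test, DESeq2 and limma-voom each called 0), 10 had an unadjusted p under 0.05, and 2.04% of all genes passed, 0.657% upward and 1.39% downward. The nearest was Hmmr, with a difference of 1.51 ± 0.43 in favour of DKO TAM (adjusted p = 0.096). Otherwise 2 members each passed without FF replicate 2 or without DKO TAM replicate 1. Cdc20 and Nek2 had differences of 3.11 and 1.70 (adjusted p = 0.27 and 0.17), and Top2a one of -0.78 (adjusted p = 0.25). The 11 members called in DKO TAM and not in KO, among them Ccnb1, Ccnb2, Cdk1, Plk1 and Cdc20, were thus not shown to differ between these experiments.

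Loss of p53 by itself was compared between p53KO and FF, at 8 and 7 weeks. One member, Bub1, was lower and 0 were higher (edgeR's quasi-likelihood test), where 0.862% of all genes passed, 0.592% upward and 0.27% downward. Both p53KO libraries lay above both FF libraries for 5 members, against 19.6% of all genes, and below both for 5, against 20.9%. Its log2 fold change was -3.86 ± 0.82 (adjusted p = 0.032), resting on 2 counts in p53KO, with a pooled ratio of 0.0627 and a counting interval of 0.00727 to 0.246. The call was absent with limma-voom, with only the libraries compared, and without FF replicate 2 or either p53KO library. These groups differ in age and in the file format of their counts as well, and p53, age and file format cannot be told apart.

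The rest of the mitotic machinery was followed in 6 lists of 127 other genes, of which 126 were tested. In DKO, 83 were higher and 9 lower, in KO 21 and 4, and in DKO TAM 23 and 1 (edgeR's quasi-likelihood test). Over all genes, 25.7% were higher and 25.7% lower in DKO, 6.92% and 7.88% in KO, and 8.61% and 10.1% in DKO TAM. Of the other spindle, kinetochore and cytokinesis genes, 53 of 56 were higher in DKO, with a median log2 fold change of 3.50, against 12 higher and 1 lower in KO and 16 higher in DKO TAM. Aspm, a spindle pole protein, rose 2.22, 17.7 and 3.66 times in KO, DKO and DKO TAM, and Casc5, the kinetochore scaffold KNL1, 3.18, 20.7 and 4.88 times. Kif20b, a kinesin that acts in cytokinesis, rose 16.8 times in DKO. Spc24, a subunit of the NDC80 complex of Ndc80 and Nuf2, fell in KO (log2 fold change -1.08 ± 0.33, adjusted p = 0.037) and rose in DKO (1.61 ± 0.30, adjusted p = 0.00026). Its KO call ended without FF replicate 2 or KO replicate 1 (-0.64 and -0.68), with DESeq2, with limma-voom, with library totals alone and with only the libraries compared.

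Subunits of condensin were among the genes that rose in DKO. Of 18 condensin and cohesin genes, 9 rose and 3 fell in DKO. Smc2, Ncapg2 and Ncaph, subunits of condensin, rose 7.49, 7.34 and 12 times, and Esco2, which acetylates cohesin, 13.8 times. The 3 that fell were Stag2, Pds5b and Wapal, a cohesin subunit and 2 cohesin regulators, with ratios of 0.596, 0.725 and 0.745. With library totals alone, the log2 values of these 3 turned to 0.021, 0.30 and 0.34, the last 2 past the threshold in the other direction (adjusted p = 0.030 and 0.014, the same edgeR test). The calls of Pds5b and Wapal also ended under upper quartile scaling, and that of Wapal without DKO replicate 3 (-0.38). In KO 3 rose and in DKO TAM 2.

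Few subunits of the APC/C passed the test. Of 16 genes in this list of subunits and regulators, 3 rose and 1 fell in DKO, with a median log2 fold change of 0.26, a smaller share upward than over all genes. Anapc4 and Cdc23 had ratios of 1.59 and 1.36, Anapc13 fell to 0.415 of its p53KO level, and Fbxo5, encoding the APC/C inhibitor EMI1, rose 3.33 times. The Cdc23 call ended without either p53KO library or without DKO replicate 2 (log2 fold change at least 0.37), and the Anapc13 call without p53KO replicate 1 (-0.70) and with library totals alone (-0.52). In DKO TAM Fbxo5 fell, with a log2 fold change of -1.71 ± 0.50 (adjusted p = 0.024, edgeR's quasi-likelihood test), and that call ended without any 1 of the 4 libraries (-1.98 to -1.47), with DESeq2 and with only the libraries compared.

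The switch for entry into mitosis comprised 18 kinases, phosphatases and their controls, of which 11 rose and 2 fell in DKO, 2 fell in KO and 2 rose in DKO TAM. Mastl, the Greatwall kinase that restrains PP2A, fell in KO (-0.77 ± 0.22), rose in DKO (2.62 ± 0.22) and rose in DKO TAM (1.03 ± 0.22), on the log2 scale. Its KO call ended without any 1 of the 4 libraries (-0.92 to -0.66), with DESeq2 and with library totals alone, and its DKO TAM call without p53KO TAM replicate 2 (0.76). Wee1, the kinase that inhibits CDK1, fell in KO (-1.17 ± 0.30) and rose in DKO (0.79 ± 0.24). The first call ended without FF replicate 1 or KO replicate 1 (-0.99 and -0.87), the second without p53KO replicate 1 or DKO replicate 2 (0.43 and 0.72). Bora, the cofactor of Aurora A for PLK1, and Chek2, a checkpoint kinase, rose 3.71 and 2.84 times in DKO. Ccnh and Lats2 were the 2 that fell there, to 0.545 and 0.738 of the p53KO level, and the Ccnh call ended with library totals alone (-0.11). The Lats2 value turned to 0.33 there (adjusted p = 0.029, the same edgeR test), and its call ended under upper quartile scaling and without DKO replicate 2 (-0.38).

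In the MuvB, DREAM and MYB list, 4 of 11 rose and 2 fell in DKO, shares not far from those over all genes. Mybl1, which encodes A-MYB, the relative of Mybl2, rose from 1.07 to 127 CPM in DKO and from 2.29 to 29.4 CPM in KO (log2 fold changes 6.78 ± 0.66 and 3.63 ± 0.65). The KO call ended without either FF library (at least 3.39) and with only the libraries compared. Its DKO TAM value was 0.84 ± 0.76 and did not pass. Rbl1, the pocket protein p107, rose 5.76 times in DKO, and Rbl2, the pocket protein p130 of resting cells, fell to 0.430 of its p53KO level. Rbbp4 also fell (ratio 0.634, with a log2 value of 0.11 under library totals alone), and Tfdp1 rose 1.58 times.

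Of the 7 tested genes that link p53 to entry into mitosis, 4 rose in KO, 3 rose and 1 fell in DKO and 1, Gtse1, rose in DKO TAM. Cdkn1a, encoding p21, had mean levels of 0.997 CPM in FF and 73.7 in KO (adjusted p = 0.015, edgeR's quasi-likelihood test). That call ended without either FF library or without KO replicate 2 (log2 fold change at least 6.00). Its means were 0.107 CPM in p53KO, from 1 count in all, and 21.3 in DKO (adjusted p = 0.013), a call that ended without either p53KO library (6.51 and 10.26). They were 5.20 CPM in the p53KO TAM pair and 11.5 in the DKO TAM pair (adjusted p = 0.46), where the log2 fold change of 1.16 turned to -0.31 without DKO TAM replicate 2. Gtse1, a microtubule protein that restrains p53, rose 8.21, 13.3 and 5.25 times in KO, DKO and DKO TAM, the last call ending without p53KO TAM replicate 1 (log2 fold change 2.47, adjusted p = 0.051). Sfn, encoding 14-3-3 sigma, rose 3.64 times in DKO, a call that ended with DESeq2 and without p53KO replicate 2 or DKO replicate 3 (log2 fold change 1.2 and 1.58). Plk3 fell there to 0.215 of its p53KO level.

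**Figure D4:**
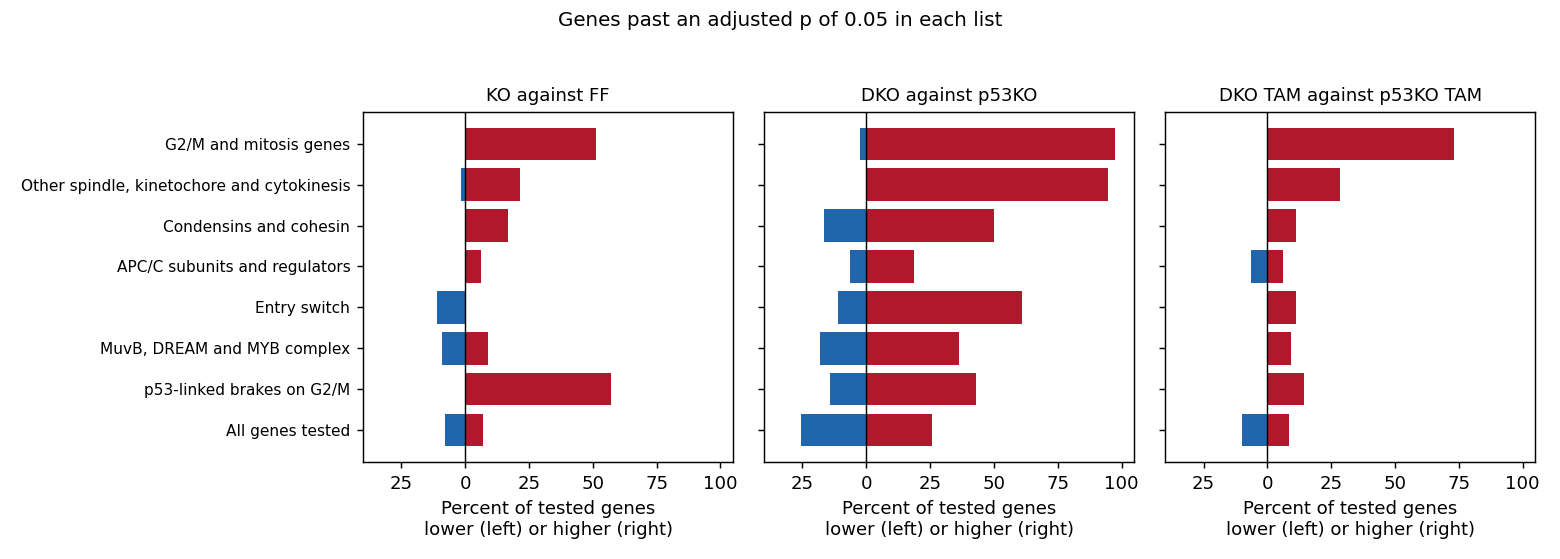
Bars give the percent of tested genes in each list that were higher (red, right) or lower (blue, left) at an adjusted p under 0.05 in the 3 comparisons. The 41 members and the other spindle genes stand out in DKO, with 40 of 41 and 53 of 56 higher, against 25.7% of all genes.

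Macrophage, stellate cell and cholangiocyte markers were mostly higher in DKO, like the members, and endothelial, erythroid and hepatocyte markers were not. Over all genes, 25.7% were higher and 25.7% lower there. Compared with p53KO, 14 of 15 macrophage markers were higher in DKO, with a summed level of 454 to 470 CPM in p53KO and 1068 to 1107 CPM in DKO. Of 12 stellate cell and fibroblast markers, 11 were higher (398 to 412 against 1528 to 1611 CPM). Of 10 cholangiocyte markers, 9 were tested and 7 higher (68.6 to 70.7 against 282 to 313 CPM). For lymphocytes, 2 of 7 tested out of 14 were higher (8.58 to 10.1 against 15.6 to 18.1 CPM), and for neutrophils 2 of 5 tested out of 9 (6.86 to 11.6 against 20.5 to 30.2 CPM). Erythroid markers summed to 282 to 308 CPM in p53KO and 162 to 206 in DKO, with 1 higher and 2 lower of 3 tested out of 11, and Hba-a1 at 0 in all 12 libraries. Gata1, Kel and the T cell gene Cd3d had at most 3 counts in every library. Of 10 endothelial markers, 2 were higher and 3 lower (766 to 776 against 606 to 704 CPM). All 9 hepatocyte markers were lower, with sums of 134817 to 137625 CPM in p53KO and 40947 to 43627 CPM in DKO, and none was at 0 in any library.

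Fewer of these markers were called in the other 2 comparisons, whose shifts were not tested against that in DKO. In KO, where 6.92% of all genes were higher and 7.88% lower, 1 of 15 macrophage, 2 of 12 stellate and 1 of 10 endothelial markers were higher than in FF, and 4 of 9 hepatocyte markers were lower. Hepatocyte sums were 121852 to 126574 CPM in FF and 73082 to 84109 CPM in KO. In DKO TAM, where 8.61% of all genes were higher and 10.1% lower, 2 of 15 macrophage and 1 of 9 tested cholangiocyte markers were higher than in p53KO TAM. Of the 12 stellate markers 1 was higher and 1 lower there, 4 of 10 endothelial and 5 of 9 hepatocyte markers were lower, and hepatocyte sums went from 131696 to 133910 CPM down to 63321 to 65407 CPM. The part of these cell types in the members' values was not tested.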

How the data were processed

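Total RNA of whole mouse liver was sequenced in 12 libraries, prepared with the SMARTer Stranded Total RNA kit, per the labels' protocols. The deposited files hold raw counts of reads per gene, made by the authors with CASAVA 1.82, HISAT2 and featureCounts on mm10, per the submitters' processing notes. The program line of the 4 files of 7-week mice names featureCounts 1.6.4 and sets no strand option, per the file headers, and the other 8 files carry no such line, so overlapping genes may share reads.

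Genes were matched by symbol and all libraries were fitted together in 1 model with a mean for each of the 6 groups (edgeR 4.0.16 in R 4.3.3, TMM scaling, filterByExpr with a minimum count of 10, robust quasi-likelihood F test, 6 residual degrees of freedom), and p-values were adjusted by Benjamini-Hochberg over all 13693 genes tested. A change passed at an adjusted p under 0.05. The SE was taken as the size of the log2 fold change over the root of F. CPM are counts over the TMM-scaled library size. A fold is the ratio of group means, where a group without counts was set at 3 counts over the group, and where a group held 1 to 3 counts the ratio is that of pooled counts over pooled library sizes, with a 95% exact binomial interval. The depth of 4939408 to 8776369 counts makes 3 counts in a library worth 0.254 to 0.678 CPM. Replicates of a group differed by more than counting noise (chi-square per degree of freedom 6.05 to 17.0). The fit was tested on simulated counts.

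The members and all gene lists were chosen with earlier results of these data known, so their counts are descriptions. All members may be named; in differences of effects, those with the smallest p or opposite signs are, and in other lists the 4 smallest p in DKO and every gene called against the majority. Of the genes so chosen, 1 is not reported here. Spc24 and Wee1 lie outside that rule and were chosen after their values were seen. Other scalings, filters, tools, thresholds, replicate blocks and left-out libraries were tried.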

Additional observations from a re-analysis of the deposited data

Results flagged for a closer look

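The effect in deleted against control livers differed between experiments for most members, by a test of the difference itself. As stated above, deletion and Cre cannot be told apart, nor can the factors that differ between the experiments. Between DKO and KO, 34 of the 41 members had a larger effect in DKO. On the log2 scale the difference was 3.37 for Top2a, 4.47 for Hmmr, 3.02 for Kif11 and 7.47 for Bub1. The KO effect of Bub1 had the opposite sign and did not pass by itself, and its p53KO libraries held very few counts. Between DKO and DKO TAM, 33 of the 41 members had a larger effect in DKO. The difference was 4.14 for Top2a, 3.20 for Kif11, 3.50 for Prc1 and 2.97 for Hmmr, and 3.14 for Cdc25b and 3.08 for Kif23, whose DKO TAM effects were negative and did not pass. With 2 libraries in each group, no library could be tested as an outlier.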

How the results depend on the processing

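In DKO against p53KO, between 40 and 41 members passed in every setting, and in DKO TAM against p53KO TAM between 21 and 36. In KO against FF the count fell from 21 to 8 at an adjusted p under 0.01 and ranged from 5 to 17 when 1 library was left out. It was 14 with limma-voom and 28 with library totals alone. For DKO TAM against p53KO TAM the left-out libraries gave 21 to 28, for the difference of DKO and KO effects 24 to 33, for that of DKO and DKO TAM effects 24 to 35, and for DKO against p53KO 40. The single call in p53KO against FF was 0 with limma-voom, at an adjusted p under 0.01, with only the libraries compared, and 0 to 1 when 1 library was left out. For the difference of DKO TAM and KO effects, where 0 passed, 1 did with no filter on low counts and 0 to 2 when 1 library was left out. Over all genes, too, fewer passed in each left-out fit, save without DKO TAM replicate 1 in that last difference. The cause was not tested.

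Several values changed sign. In KO against FF, leaving out 1 library gave -0.0287 (FF replicate 1) to 1.08 (FF replicate 2) for Cdc25b, -1.20 (FF replicate 1) to 0.18 (FF replicate 2) for Bub1 and -0.0102 (FF replicate 1) to 0.22 (FF replicate 2) for Pttg1. In DKO against p53KO, library totals alone gave 0.28 for Pttg1, 0.021 for Stag2, 0.30 for Pds5b, 0.34 for Wapal, 0.33 for Lats2 and 0.11 for Rbbp4, with Pds5b, Wapal and Lats2 past the threshold in the other direction, where the median of all genes was 0.78. In DKO TAM against p53KO TAM, library totals alone gave 0.12 for Cdc25b, 0.0848 for Pttg1 and 0.27 for Kif23. Leaving out 1 library gave -0.49 (p53KO TAM replicate 1) to 0.36 (p53KO TAM replicate 2) for Kif23, which was also 0.27 without DKO TAM replicate 1. It gave -0.25 (DKO TAM replicate 2) to 0.35 (DKO TAM replicate 1) for Espl1, which was also -0.0284 without p53KO TAM replicate 2 and -0.0039 with limma-voom. Cdkn1a went from -0.31 (DKO TAM replicate 2) to 1.91.

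Libraries with the same number in the descriptions, where the DKO libraries 2 and 3 of the titles are 1 and 2, did not deviate together in all experiments (correlations of 0.24, -0.21 and -0.0063 for KO, DKO and DKO TAM with their controls), so the numbers were not taken as pairs. With a replicate block, 19 members passed in KO (the calls of Birc5, Mki67 and Nuf2 ended, at adjusted p of 0.059, 0.058 and 0.056 in edgeR's quasi-likelihood test), 41 in DKO, 30 in DKO TAM, 34 and 32 in the 2 differences of the DKO effect, 1 in p53KO against FF and 0 in the difference of DKO TAM and KO effects. With the DKO numbers crossed, added after seeing the data, these were 17, 41, 30, 34, 33, 1 and 0. When a library is left out, the lone library of its group is assumed to vary like the other groups. Depth limits Bub1, Cdc25c, Troap, Ube2c, Ccnb1 and Plk1, whose p53KO libraries held few or no counts. It also limits Aurkb and Mybl2 in FF and Cdc20 in p53KO TAM.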
